A study of Mus musculus with 55 samples.

Results

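Calb2, Calcrl, Glp1r, Csf2rb2, Nmb, Gal and Ociad2 are listed here as genes of the mossy cells of the dentate hilus in mice. Whether each is particular to mossy cells in this tissue was not tested. The 7 genes were taken by name as a list, with no threshold on these counts. They make up 7 of the 45318 genes counted and 7 of the 18283 genes that passed the filter on low counts. Stranded total RNA libraries were made from ventral dentate gyrus punches, each from a single male mouse of strain C57BL/6J that had grown up in standard housing (SH) or in an enriched environment (EE), meaning large shared cages with tunnels, objects and running wheels. As adults, mice of both housings stayed without stress as controls or went through chronic social defeat stress (CSDS) by CD-1 aggressors, and the defeated mice were classed as resilient (RES) or susceptible (SUS) by their ratio of social interaction. The 54 mice fell into 6 groups, namely SH control (n = 10), SH RES (n = 7), SH SUS (n = 10), EE control (n = 9), EE RES (n = 9) and EE SUS (n = 9). RES and SUS are therefore classes made from behavior after the same treatment, and not treatments themselves. The 55 libraries held 16760009 to 45872357 counts on genes per mouse with a median of 21552884, and the highest total belonged to the EE control mouse whose 2 runs were summed.

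Mossy cells are glutamatergic neurons of the hilus, the layer between the blades of dentate granule cells. Granule cells excite them through mossy fibers, and mossy cells in turn send long axons to granule cells and to inhibitory interneurons on both sides of the brain. Calretinin, the product of Calb2, labels mossy cells of the ventral hippocampus in mice, but it is also made by immature granule neurons, some interneurons and Cajal-Retzius cells. Bulk tissue was sequenced, so that fewer cells of a type and less RNA per cell cannot be told apart in any value below.

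The genes serve different roles. Calb2 encodes the calcium-buffering protein calretinin (ENSMUSG00000003657, chromosome 8, 110137502 to 110168210, minus strand). Calcrl encodes the calcitonin receptor-like receptor, which forms receptors for CGRP and adrenomedullin with RAMP proteins (ENSMUSG00000059588, chromosome 2, 84330626 to 84425411, minus strand). Glp1r encodes the receptor for glucagon-like peptide 1 (ENSMUSG00000024027, chromosome 17, 30901817 to 30940791, plus strand). Csf2rb2 encodes a beta chain of the interleukin 3 receptor that rodents carry beside the common chain Csf2rb (ENSMUSG00000071714, chromosome 15, 78282507 to 78305721, minus strand). Nmb (ENSMUSG00000025723, chromosome 7, 80902227 to 80905076, minus strand) and Gal (ENSMUSG00000024907, chromosome 19, 3409915 to 3414544, minus strand) encode the neuropeptides neuromedin B and galanin. Ociad2 encodes a membrane protein with an OCIA domain (ENSMUSG00000029153, chromosome 5, 73322199 to 73341028, minus strand). Coordinates are whole genes of GRCm38, and counts cover their exons.

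The start regions of 4 of the 7 genes are shown because 3 of them, Glp1r, Csf2rb2 and Gal, varied with Calb2 across mice, while the fourth, Ociad2, varied opposite to them. The sequences are from RefSeq (GRCm38.p6), read 5′ to 3′ on the strand of the gene, and run from 250 to 51 bases before the start that RefSeq gives. Capitals mark 3 motifs searched on both strands. The GC box has the letters GGGCGG. The CCAAT box has the letters of its name, and the half-site of the cyclic AMP response element (CRE) has TGACG. None overlaps an exon in GENCODE, whose gene coordinates are printed above and whose starts can differ from those of RefSeq. The Glp1r window ends at the base next to the GENCODE gene, and the GENCODE gene Ociad2 reaches beyond its window on the upstream side.
Glp1r, chr17:30901617-30901816, plus strand: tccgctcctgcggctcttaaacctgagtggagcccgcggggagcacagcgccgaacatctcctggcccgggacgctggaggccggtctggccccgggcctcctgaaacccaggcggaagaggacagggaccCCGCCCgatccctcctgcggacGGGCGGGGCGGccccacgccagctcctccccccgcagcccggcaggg
Csf2rb2, chr15:78305772-78305971, minus strand: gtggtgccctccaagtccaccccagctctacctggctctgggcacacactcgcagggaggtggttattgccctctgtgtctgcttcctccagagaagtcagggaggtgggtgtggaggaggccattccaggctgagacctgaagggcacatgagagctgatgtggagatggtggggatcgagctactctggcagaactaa
Gal, chr19:3414595-3414794, minus strand: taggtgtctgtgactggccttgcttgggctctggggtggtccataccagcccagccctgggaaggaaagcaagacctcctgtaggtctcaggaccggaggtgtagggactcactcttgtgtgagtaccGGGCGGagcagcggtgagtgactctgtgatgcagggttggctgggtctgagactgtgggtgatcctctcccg
Ociad2, chr5:73338998-73339197, minus strand: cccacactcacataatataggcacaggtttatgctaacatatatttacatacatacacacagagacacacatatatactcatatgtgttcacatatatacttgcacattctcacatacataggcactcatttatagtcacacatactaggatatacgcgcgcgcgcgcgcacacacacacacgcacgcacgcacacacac
The Glp1r window held 3 GC boxes, of which a pair share bases, and 75% of its bases were G or C, against a median of 51.5% over 32851 promoters. Gal held 1 GC box at 60.5% G or C, and Csf2rb2 (59%) and Ociad2 (42.5%) held none of the 3 motifs. GC boxes occurred in 24.6% of all windows of this length, CCAAT boxes in 28.4% and CRE half-sites in 12.7%, and no motif was held by all 3 of the Glp1r, Csf2rb2 and Gal windows.

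All 7 genes were high enough to be judged under the rule that a gene pass the count filter with a median of at least 10 counts per mouse, and a minimum of 20 counts removed none. The median count per mouse was 2923 for Calb2, 1452 for Ociad2, 337.5 for Calcrl, 121.5 for Glp1r, 51 for Nmb, 38.5 for Csf2rb2 and 22 for Gal. Per kilobase of exon, the mean level was 75.2 CPM for Calb2 and 26.4 CPM for Ociad2. The other 5 genes were far lower, at 3.21 CPM per kilobase for Calcrl, 3.11 for Nmb, 1.36 for Gal, 0.940 for Glp1r and 0.371 for Csf2rb2. Counting error set how finely each gene could be read. It accounted for 0.734% of the variance between mice of a group for Calb2 and 1.64% for Ociad2, but for 26.7% for Calcrl, 29.5% for Glp1r, 39.3% for Csf2rb2, 49.6% for Nmb and 56.1% for Gal. Gal and Nmb could therefore be judged for large changes, since counting error made up about as much of their spread as differences between mice did. A further limit applies to Csf2rb2, of whose 100-base transcript stretches 6.82% also occur in Csf2rb, so reads from these paralogs may be divided between them or lost.

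Calretinin RNA spanned 51.3 to 201.7 CPM between single mice, and the 6 groups lay within that range. The lowest, median and highest mice had 51.3, 135 and 167 CPM in SH controls, 131, 139.7 and 189 in SH RES and 98.4, 120.1 and 141 in SH SUS mice. In EE they had 79.3, 149 and 202 CPM in controls, 71.9, 129.9 and 159 in RES and 83.9, 129.5 and 166 in SUS mice. The 7 SH RES mice were all above the median of SH SUS mice, yet the ranges of every pair of groups overlapped. By mean the order was SH RES, EE control, EE SUS, SH control, EE RES and SH SUS, from 153 ± 25.03 CPM (SD, n = 7) to 121 ± 15.6 CPM (SD, n = 10), and no neighbors in this order differed by more than the larger of their SDs.

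Ociad2 had a different order. Its lowest, median and highest mice had 55.6, 66.3 and 93.1 CPM in SH controls, 49.1, 60.9 and 67.4 in SH RES and 55.8, 68.7 and 104 in SH SUS mice. In EE the values were 45.3, 60.6 and 108 CPM in controls, 60.8, 76.8 and 113 in RES and 65.2, 81.1 and 92.2 in SUS mice. SH RES was the lowest group with 61.2 ± 6.42 CPM (SD, n = 7), and EE RES the highest with 81.7 ± 16.4 CPM (SD, n = 9), so that both extremes of Ociad2 were groups of resilient mice. Controls of both housings lay between them with means of 67.1 and 67.3 CPM, and EE controls alone covered nearly the whole range of the 54 mice.

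Calcrl was the steadiest of the 7 genes, with a within-group coefficient of variation of 10.6% against 22.7% for Calb2 and 29.2% for Gal. Its lowest, median and highest mice had 12.97, 15.6 and 18 CPM in SH controls, 14.9, 16.7 and 19.6 in SH RES, 12.6, 16.2 and 18.6 in SH SUS, 12.97, 16.2 and 17.3 in EE control, 12.3, 14.1 and 17.1 in EE RES and 13.7, 15.7 and 18.96 in EE SUS mice. The EE RES mice were lowest by mean with 14.3 ± 1.48 CPM (SD, n = 9) and the SH RES mice highest with 16.97 ± 1.78 CPM (SD, n = 7), the reverse of Ociad2. Glp1r, the second receptor, ranged from a mean of 5.07 ± 1.16 CPM (SD, n = 10) in SH controls to 6.21 ± 0.684 CPM (SD, n = 7) in SH RES mice. Its lowest, median and highest mice had 3.37, 5.18 and 7.44 CPM in SH controls, 5.48, 6.17 and 7.54 in SH RES, 4.05, 4.98 and 6.72 in SH SUS, 4.15, 6.01 and 6.896 in EE control, 3.85, 5.202 and 6.38 in EE RES and 3.79, 5.58 and 7.23 in EE SUS mice. All 7 SH RES mice were above the SH control median, although the ranges of these groups overlapped.

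The peptide Gal was read from 10 to 52 counts per mouse. Its lowest, median and highest mice had 0.507, 1.04 and 1.696 CPM in SH controls, 0.904, 1.21 and 1.65 in SH RES, 0.559, 0.999 and 1.28 in SH SUS, 0.826, 1.45 and 1.81 in EE control, 0.488, 0.997 and 1.49 in EE RES and 0.495, 1.06 and 1.17 in EE SUS mice. EE controls had the highest mean, 1.33 ± 0.403 CPM (SD, n = 9), and SH SUS mice the lowest, 0.953 ± 0.255 CPM (SD, n = 10). Nmb ranged between group means of 2.22 and 2.59 CPM over 34 to 113 counts, and Csf2rb2 between 1.63 and 1.88 CPM over 15 to 62 counts. For all 7 genes, the ranges overlapped in all 15 pairs of groups and no neighbors in the order of means differed by more than the larger SD.

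**Figure D1:**
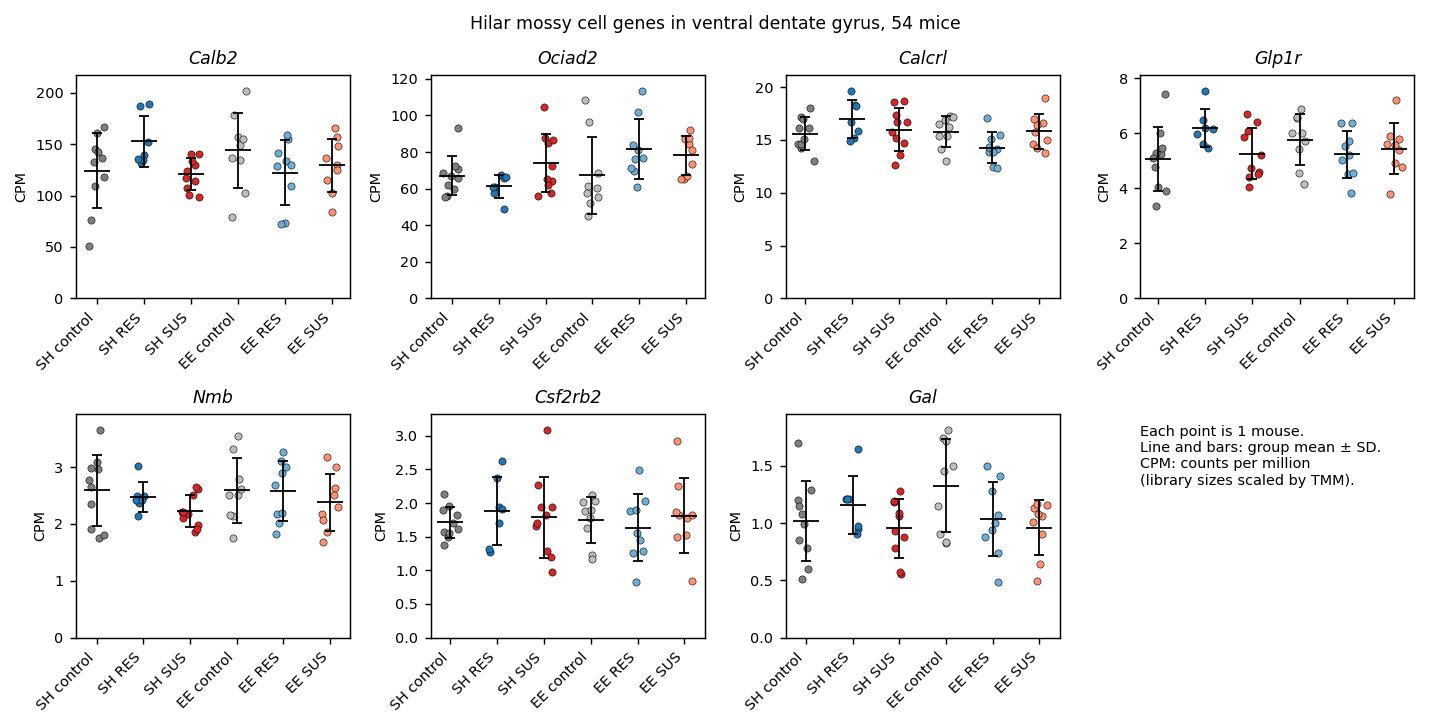
Level of each of the 7 genes in CPM (vertical axis, from 0) in every mouse of the 6 groups (horizontal axis), with the group mean and SD as line and bars. The groups overlap for every gene, with SH RES highest by mean for Calb2, Calcrl, Glp1r and Csf2rb2 and lowest for Ociad2.

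Whether housing, defeat or its outcome moved these genes was asked in 14 comparisons. No member passed an adjusted p of 0.05 by the quasi-likelihood test of edgeR, which gave 0 of 98 gene tests, and DESeq2 and limma-voom with adjusted p-values also gave 0. Among all genes tested, edgeR called 0.35% for any difference among the 6 groups, 2.42% for EE against SH over all phenotypes, 0.0438% for defeated against control mice and 0% both for SUS against RES over both housings and for the interaction of defeat with housing. In single pairs of groups it called 0.273% for EE RES against SH RES, 0.0328% for SH SUS against SH control, 0.00547% each for EE control against SH control and EE SUS against SH SUS, and 0% in the other 5 pairs. At these shares a handful of genes would seldom hold a call, and for most comparisons the count of 0 says little about the 7 genes in particular. Without adjustment, 12 of the 91 directional changes (13.2%) had p below 0.05, of which 4 each belonged to Calcrl and Ociad2, 2 to Gal, 1 to Calb2 and 1 to Glp1r. The background at that unadjusted threshold ran from 2.78% of genes for SH SUS against SH control, and 7.36% for EE SUS against SH SUS, neither with a member, to 17.6% for EE against SH. In the test for any difference among the groups, Ociad2 alone had an unadjusted p below 0.05 (edgeR adjusted p = 0.359), where 11.1% of all genes did. A looser criterion, limma-voom with p below 0.05 before adjustment and more than a 1.3-fold change, passed Ociad2 for any difference among the groups (3.32% of all genes) and for EE RES against SH RES (3.24%), and Gal for EE SUS against EE control (1.94%) and EE control against SH control (1.12%). It passed 0 members in the other 10 comparisons, where edgeR and DESeq2 with adjustment also passed 0. The shares of all genes there were 0.481% for defeated against control, 0.613% for EE against SH, 0.454% for SUS against RES, 1.68% for the interaction, 0.93% for SH SUS and 1.21% for SH RES against SH control, 1.17% for EE RES against EE control, 1.14% for SH SUS against SH RES, 1.1% for EE SUS against EE RES and 1.56% for EE SUS against SH SUS.

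EE RES against SH RES mice gave the smallest adjusted p-values. Calcrl had a log2 fold change of -0.25 (SE 0.08, edgeR adjusted p = 0.0925), and Ociad2 had a log2 fold change of 0.42 (SE 0.14, edgeR adjusted p = 0.115). These were 2 of 7 genes at an unadjusted p below 0.05, where 16% of all genes had one. Calb2 (-0.32, SE 0.17), Glp1r (-0.24, SE 0.12), Csf2rb2 (-0.21, SE 0.19) and Gal (-0.17, SE 0.21) had negative log2 fold changes that missed an unadjusted p of 0.05, and Nmb differed by less than its standard error. When single mice were left out, the values of Csf2rb2 and Gal ran from -0.31 (without EE RES replicate 6) to -0.10 (without SH RES replicate 7) and from -0.26 (without EE RES replicate 7) to -0.07 (without SH RES replicate 5). The 7 genes had a median log2 fold change of -0.21 against 0.00 over all genes, with 5 of 7 lower against 51.6% of all genes higher. Without EE RES replicate 6, Calcrl passed with a log2 fold change of -0.29 (edgeR adjusted p = 0.0483). Markers of other cells also had values off 0 in this comparison. All 6 dentate granule cell genes were lower, with a median of -0.34, and 4 of 5 CA3 pyramidal cell genes and 4 of 4 oligodendrocyte genes were higher, with medians of 0.32 and 0.38, although 0 of the genes in these 3 lists passed the edgeR adjusted threshold, and 5, 3 and 3 of them had an unadjusted p below 0.05. All 5 immature granule neuron genes were lower (median -0.19, 3 at an unadjusted p below 0.05). Of the 6 choroid plexus genes, 5 were higher (median 2.05, 1 of the 6 at that threshold). The summed choroid plexus level had a median of 20.3 CPM in EE RES and 21.1 CPM in SH RES mice. Its highest values were 303.6 and 23.6 CPM. After adjustment edgeR called 0 of the immature granule neuron and choroid plexus genes. The part of all these lists in the values of the 7 genes was not tested in this comparison.

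SH RES mice had the highest means of the 6 groups for 4 of the 7 genes. Compared with SH RES, SH SUS mice had log2 fold changes of -0.34 for Calb2 (SE 0.16) and 0.28 for Ociad2 (SE 0.13), each with an edgeR adjusted p of 0.934, and 2 of 7 genes had an unadjusted p below 0.05 against 4.88% of all genes. Members below that unadjusted threshold numbered 0 with DESeq2, 1 each with limma-voom and the replicate block, and 3 without the count filter. Calb2 and Ociad2 had opposite signs, and 6 of 7 genes were lower in SUS mice, with a median of -0.16 against 0.00 over all genes. Glp1r was 0.29 higher on the log2 scale in SH RES than in SH control mice (SE 0.12, edgeR adjusted p = 0.9999, background 3.51% at an unadjusted p below 0.05). Calb2 had a log2 value of 0.30 in that comparison (SE 0.16). The comparisons share the SH RES group of 7 mice and are not independent. Genes of immature granule neurons, which also make calretinin, had the signs of Calb2 in both. All 5 were lower in SH SUS than in SH RES mice, with a median of -0.21 and 3 at an unadjusted p below 0.05, and all 5 were higher in SH RES than in SH control mice, with a median of 0.14 and 0 at that threshold, while edgeR called 0 of them after adjustment in either comparison. SH RES was also the 1 group without a mouse rich in choroid plexus RNA. The summed level of 6 choroid plexus genes reached 23.6 CPM at most in SH RES, while the highest mouse of the other groups had 303.6 to 973.7 CPM, with Ttr the most abundant gene. The lists that Ociad2 varied with differed too. In SH SUS against SH RES mice, 4 of 5 CA3 genes (median 0.16), 4 of 4 oligodendrocyte genes (median 0.19) and 6 of 6 interneuron genes (median 0.09) were higher, with 0 at an unadjusted p below 0.05, and 5 of 6 granule cell genes were lower (median -0.08, 2 of the 6 at that threshold). In SH RES against SH control mice, 5 of 5 CA3 genes (median -0.12), 4 of 4 oligodendrocyte genes (median -0.29) and 6 of 6 interneuron genes (median -0.08) were lower, with 0 at that threshold, and 3 of 6 granule cell genes were higher (median 0.03). Of the choroid plexus genes, 6 of 6 were lower in SH RES than in SH control mice (median -3.10, 5 at that threshold). All 6 were higher in SH SUS than in SH RES mice (median 2.40, 1 at that threshold). After adjustment edgeR called 0 of these genes in either comparison. The part of these lists in the SH RES values was not tested.

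Within EE, Gal, Ociad2 and Calcrl had unadjusted p-values below 0.05. Gal had a log2 fold change of -0.45 in EE SUS against EE control mice (SE 0.20, edgeR adjusted p = 0.567, background 7.9% at an unadjusted p below 0.05), and was 0.39 higher in EE than in SH control mice (SE 0.19, edgeR adjusted p = 0.976, background 5.02%). Both comparisons share the EE control mice, which held the 3 highest Gal values of all. Against EE controls, EE RES mice had log2 fold changes of 0.28 for Ociad2 (SE 0.13, edgeR adjusted p = 0.615) and -0.14 for Calcrl (SE 0.07, edgeR adjusted p = 0.63), where 7.91% of all genes had an unadjusted p below 0.05. Beside these values, 5 of 5 CA3 genes were higher in EE RES than in EE control mice (median 0.27, 3 at an unadjusted p below 0.05), and 6 of 6 granule cell genes (median -0.22, 2 at that threshold) and 5 of 5 immature granule neuron genes (median -0.18, 3 at that threshold) were lower. In EE SUS against EE control mice, where Gal had its value, 6 of 6 thalamus genes were higher (median 0.94, all 6 at an unadjusted p below 0.05) and 5 of 5 CA3 genes were higher (median 0.30, 3 at that threshold). There, 6 of 6 granule cell genes (median -0.13, 0 at that threshold) and 4 of 5 immature granule neuron genes (median -0.14, 1 of the 5) were lower. In EE against SH control mice, 5 of 5 CA3 genes (median -0.09, 1 at that threshold) and 6 of 6 thalamus genes (median -0.27, 0 at that threshold) were lower, and 4 of 5 immature granule neuron genes were higher (median 0.11, 1 of the 5 at that threshold). By edgeR with adjustment 0 of these genes were called in these comparisons, and their part in the values of Ociad2, Calcrl and Gal was not tested. Calcrl was 0.15 higher in EE SUS than in EE RES mice (SE 0.07, edgeR adjusted p = 0.9997, background 3.52%). Higher there were also 6 of 6 thalamus genes (median 0.47, 1 at an unadjusted p below 0.05) and 6 of 6 granule cell genes (median 0.10, 0). So were 4 of 5 immature granule neuron genes (median 0.16, 2 of the 5), while 4 of 4 CA1 genes were lower (median -0.32, 1). After adjustment edgeR called 0 of them, and their part in the Calcrl value was not tested. With controls, RES and SUS mice pooled, EE against SH gave 0.17 for Ociad2 (SE 0.07, edgeR adjusted p = 0.207) and -0.08 for Calcrl (SE 0.04, edgeR adjusted p = 0.277). In that pooled comparison edgeR called Dsp and Tdo2 of 6 granule cell genes lower, and the oligodendrocyte gene Mbp and Flt1 of 6 endothelial genes higher, and their part in the values of Ociad2 and Calcrl was not tested. Mbp lost the call when any 1 of 38 mice was left out, and Dsp when SH RES replicate 7 was.

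Defeat as such gave small values. Over both housings, defeated mice differed from controls by a log2 value of -0.17 for Gal (SE 0.12) and by less in size for the other 6 genes, with 0 of 7 genes at an unadjusted p below 0.05 against 4.81% of all genes. SUS against RES mice gave -0.19 for Gal (SE 0.14) at most, and again 0 of 7 genes against 3.67%. The interaction of defeat with housing gave wider values, -0.46 for Gal (SE 0.24), -0.32 for Calb2 (SE 0.19), -0.27 for Glp1r (SE 0.14) and 0.24 for Ociad2 (SE 0.15), with 0 of 7 genes against 6.47%. In the same interaction, 5 of 5 CA3 genes (median 0.31, 2 at an unadjusted p below 0.05), 6 of 6 thalamus genes (median 0.65, 3) and 6 of 6 choroid plexus genes (median 1.97, 2) had positive values, while 6 of 6 granule cell genes (median -0.16, 0) and 4 of 5 immature granule neuron genes (median -0.18, 1 of the 5) had negative ones. By edgeR with adjustment 0 of them were called, and their part in the values of the members was not tested. For Gal the interval of 1.96 standard errors ran from -0.92 to 0.01, at a median of 22 counts per mouse.

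**Figure D2:**
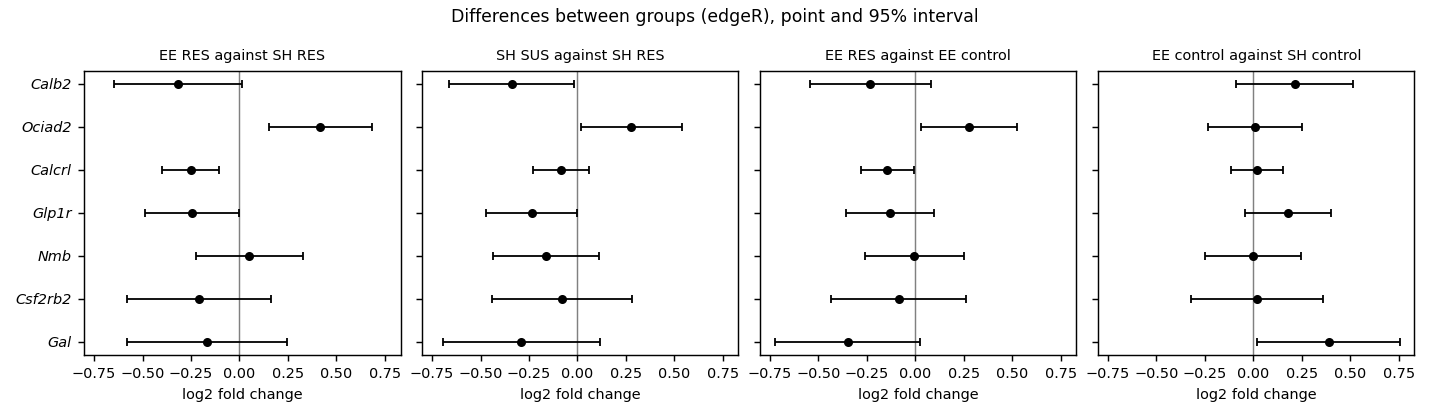
Log2 fold change (horizontal axis) of each gene in 4 comparisons of groups, as the edgeR estimate with an interval of 1.96 standard errors. Ociad2 lies to the right of 0 and Calb2 to the left in the 3 comparisons that involve RES mice, and no gene passed an adjusted p of 0.05.

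Whether the 7 listed genes varied together from mouse to mouse was asked next. After the mean of each group was removed from log2 CPM, 10 of 21 pairs were correlated over the 54 mice at an adjusted p below 0.05 by permutation within groups, 5 positively and 5 negatively. The positive pairs joined Calb2 with Glp1r (r = 0.683, rho = 0.567, adjusted permutation p = 0.000315), Gal (r = 0.555, rho = 0.482, adjusted permutation p = 0.000367) and Csf2rb2 (r = 0.351, rho = 0.263, adjusted permutation p = 0.0136), and Glp1r with Csf2rb2 (r = 0.483, rho = 0.475, adjusted permutation p = 0.00084) and Gal (r = 0.368, rho = 0.330, adjusted permutation p = 0.0321). Without the 2 mice farthest from the Calb2 median, r was 0.600 for Glp1r, 0.461 for Gal and 0.303 for Csf2rb2. Without the 2 mice farthest from the Glp1r median, it was 0.487 for Csf2rb2 and 0.350 for Gal. Calb2 and Glp1r rose and fell together in each of the 6 groups (r from 0.452 to 0.831), and so did Calb2 and Gal (0.177 to 0.774). By Spearman's rho, 7 of the 10 pairs passed, and Calb2 with Csf2rb2 (adjusted permutation p = 0.104), Glp1r with Gal (adjusted permutation p = 0.0602) and Gal with Ociad2 (adjusted permutation p = 0.0795) did not. The lowest Calb2 level of all mice, 51.3 CPM in SH control replicate 10, stood beside the lowest Glp1r level, 3.37 CPM.

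A correlation of this size is not rare in these libraries. The smallest r called was 0.327 in size, and 18.9% of all 18282 other genes reached it with Calb2, 15.9% with Glp1r, 21.8% with Csf2rb2, 10.4% with Gal, 9.41% with Calcrl, 8.42% with Nmb and 32.7% with Ociad2. The pair of Calb2 and Glp1r stood well above that, since Calb2 ranked 3 among the 18282 genes most like Glp1r and Glp1r ranked 46 for Calb2. Calb2 ranked 19 for Gal, and Gal 239 for Calb2. In control mice alone (n = 19) r was 0.827 for Calb2 and Glp1r and 0.680 for Calb2 and Gal, and in defeated mice alone (n = 35) it was 0.537 and 0.439, of which the last missed an adjusted permutation p of 0.05 with 0.0595. A difference between control and defeated mice was not tested.

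The 5 negative pairs included 4 with Ociad2. It was opposed to Calb2 (r = -0.605, rho = -0.476, adjusted permutation p = 0.000315), Csf2rb2 (r = -0.539, rho = -0.605, adjusted permutation p = 0.00035), Glp1r (r = -0.488, rho = -0.408, adjusted permutation p = 0.0013) and Gal (r = -0.335, rho = -0.306, adjusted permutation p = 0.0455). Leaving out the 2 mice farthest from the median of the other gene gave -0.591, -0.584, -0.527 and -0.291 in that order. The fifth negative pair was Calcrl and Nmb (r = -0.327, rho = -0.364, adjusted permutation p = 0.0397, and -0.325 without the 2 farthest mice). Calcrl and Nmb were correlated with none of the other members at that threshold, with r between -0.24 and 0.26. In these libraries the 7 genes therefore did not vary as 1 set. Glp1r, Gal and Csf2rb2 each varied with Calb2, and Gal and Csf2rb2 each with Glp1r, but Csf2rb2 and Gal were not correlated with each other at that threshold (r = 0.162, rho = 0.201, adjusted permutation p = 0.35). Ociad2 varied against these 4 genes.

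**Figure D3:**
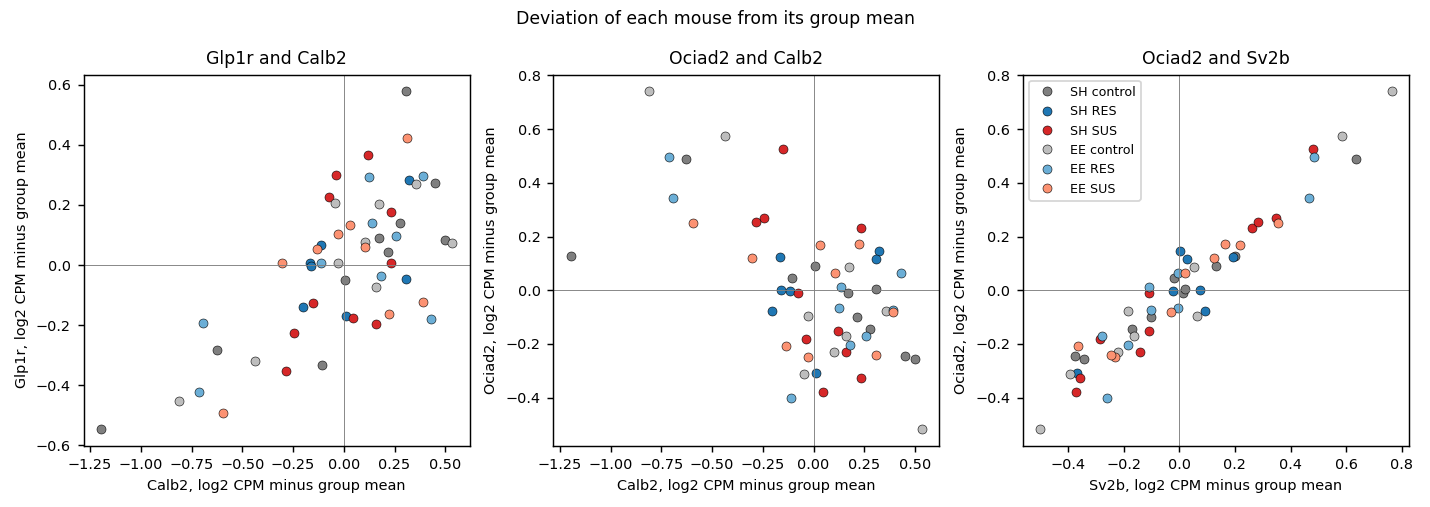
Deviation of each mouse from its group mean in log2 CPM for Calb2 and Glp1r (left), Calb2 and Ociad2 (middle) and Sv2b and Ociad2 (right), with 1 point per mouse colored by group. Glp1r rises with Calb2 (r = 0.683), Ociad2 falls with it (r = -0.605), and Ociad2 lies close to a line with Sv2b (r = 0.963).

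Punches of the dentate gyrus also hold granule cells, pyramidal cells of CA3, glia and adjoining tissue, and markers of these cells were scored in the same mice. The granule cell genes Prox1, C1ql2, Dsp, Lct, Tdo2 and Stxbp6 were all tested and summed to between 391 and 881 CPM per mouse, with Prox1 the most abundant, and the 5 CA3 genes summed to between 175 and 376 CPM, led by Nectin3. Of 77 correlations between a member and a list, 28 passed an adjusted permutation p of 0.05 by r and 24 of these also by rho. Calb2 with granule cells, Gal with CA3 cells and with interneurons, and Ociad2 with CA1 cells passed by r alone. Ociad2 rose with the CA3 list (r = 0.779), the oligodendrocyte list (r = 0.699), the choroid plexus list (r = 0.650) and the interneuron list (r = 0.644), and fell with the granule cell list (r = -0.828). The genes most like Ociad2 in all 18282 were Sv2b (r = 0.963), a synaptic vesicle protein that both mossy cells and CA3 neurons make, then Nrip3 (0.949), Socs2 (0.943), Kcnq5 (0.934) and Thsd4 (0.922). Its partner by sequence family, Ociad1, had r = 0.809 and the granule cell calcium buffer Calb1 r = -0.813.

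Calb2 had the reverse pattern, with r = -0.766 for the CA3 list, 0.545 for immature granule neurons and 0.467 for granule cells. Glp1r followed it with -0.575, 0.392 and 0.484, as did Csf2rb2 (-0.491, 0.353 and 0.417) and Gal (-0.351, 0.527 and 0.402). The Cajal-Retzius list, which could share Calb2, had r = -0.13 with it over the 3 of 5 genes tested, while Lhx1 and Lhx5 were too low for the test. Nmb rose with the granule cell list (r = 0.389) and with no other, and the gene most like it was the granule cell marker Lct (r = 0.655). Calcrl passed the threshold with 0 of 11 lists. Its highest value among them was 0.27 for microglia and its value for endothelial cells, which carry this receptor in vessels, was 0.22. The genes most like Calcrl were Mt1 (r = 0.668) and Lamp2 (r = 0.651), and for Calb2 they were Adcyap1, a neuropeptide gene (r = 0.887), Glp2r, a peptide receptor gene (r = 0.872), Rcn1 (0.837), Trhr (0.829) and Thbs2 (0.813).

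When the CA3 and granule cell scores were regressed out of each gene, 2 of the 21 pairs still passed, against 10 before. These were Calb2 with Gal (r = 0.489) and Calb2 with Glp1r (r = 0.468), each with an adjusted permutation p of 0.00924. All 4 negative pairs of Ociad2 lost the call, with r = -0.02 for Calb2, 0.11 for Glp1r and for Gal, and -0.24 for Csf2rb2. Calb2 and Csf2rb2 went from 0.351 to -0.05, and Glp1r and Csf2rb2 from 0.483 to 0.254. Calcrl and Nmb had r = -0.322 with an adjusted permutation p of 0.107. This regression was added after the correlations had been seen, and scores of 5 and 6 genes carry error of their own. The immature granule neuron score was not regressed out. Before the regression it had r = 0.545 with Calb2, 0.527 with Gal and 0.392 with Glp1r, and its part in the 2 pairs that still passed was not tested.

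**Figure D4:**
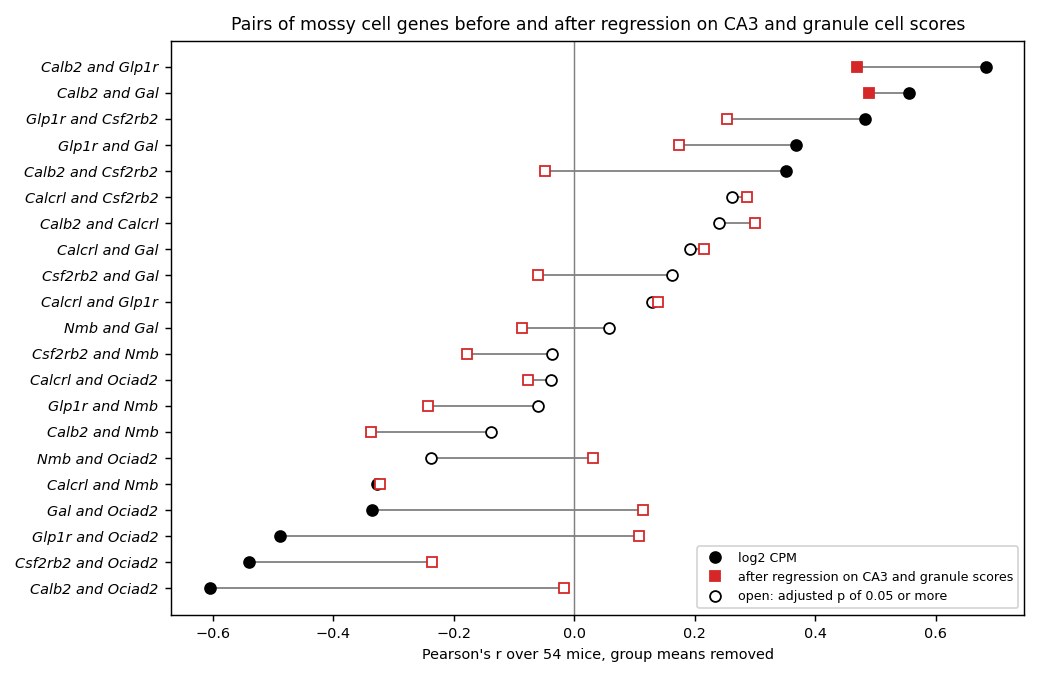
Pearson's r over 54 mice for the 21 pairs of genes (horizontal axis) before (circles) and after (squares) the CA3 and granule cell scores were regressed out, with open symbols for an adjusted p of 0.05 or more. Calb2 with Glp1r and Calb2 with Gal keep filled squares near 0.47 and 0.49, and the 4 pairs of Ociad2 that had passed move toward 0.

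Of 5 other genes known from mossy cells, Drd2, Sv2b, Cartpt, Ajap1 and Cda, some followed the same division. Of 154 correlations of members with these genes and with their partners, 35 passed an adjusted permutation p of 0.05 by r and 24 of these also by rho. Those of Drd2 with Calb2 and Ociad2, Cda with Ociad2, and Sv2b with Gal passed by r alone. Drd2, the dopamine receptor by which mossy cells are often reached genetically, rose with Glp1r (r = 0.561, adjusted permutation p = 0.0015) and Calb2 (r = 0.442, adjusted permutation p = 0.0214). Cda rose with Calb2 (r = 0.469) and Gal (r = 0.462), and both Drd2 (r = -0.387) and Cda (r = -0.359) fell with Ociad2. Sv2b instead fell with Calb2 (r = -0.671), Glp1r (r = -0.546), Csf2rb2 (r = -0.538) and Gal (r = -0.406). Ajap1 was opposed to Calcrl (r = -0.550), and Cartpt passed with no member. Drd2 had 0.731 to 2.27 CPM per mouse and a log2 fold change of -0.44 in SH SUS against SH RES mice (SE 0.16, edgeR adjusted p = 0.934). In that comparison the 5 genes had a median of 0.05, with Drd2 and Cda lower, as Calb2 was, and Sv2b, Cartpt and Ajap1 higher. In EE RES against SH RES mice Sv2b had 0.46 (SE 0.15, edgeR adjusted p = 0.114), close to the 0.42 of Ociad2.

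A list of 23 related genes was examined as well, and 17 of 23 passed the count filter. It held ligands, receptors and receptor partners of these genes and of close relatives, the peptidase gene Dpp4, the Ociad2 paralog Ociad1, and the calcium buffer genes Calb1 and Pvalb. The galanin receptor gene Galr3 on this list was matched to no identifier, so it had no counts and was not measured. For Calcrl, the RAMP genes were present, with a median of 59.6 CPM for Ramp1, 18.4 CPM for Ramp2 and 4.05 CPM for Ramp3, whereas its ligands were scarce, with 14.5 counts per mouse for Calca and Adm, 4 for Calcb and 0 for Adm2. Gcg, from which the ligand of Glp1r is cut, had at most 1 count in any mouse, and so did the galanin receptor Galr2 and the interleukin receptor Il5ra. Galr1 had a median of 10 counts, and the neuromedin receptor Nmbr 68.5 counts. Ramp1 rose with Calb2 (r = 0.569) and Glp1r (r = 0.377) and fell with Ociad2 (r = -0.377), but its r with its own partner Calcrl did not pass. Csf2ra, the alpha chain of the GM-CSF receptor, rose with Csf2rb2 (r = 0.368) and to a like degree with Glp1r (r = 0.376), and fell with Ociad2 (r = -0.426). Of the 17 listed genes, 0 were called by edgeR in any of the 13 directional comparisons, with at most 6 at an unadjusted p below 0.05 (EE SUS against EE control, where 7.9% of all genes had one). The smallest p belonged to Ramp3 in EE SUS against EE control mice, with a log2 fold change of 1.31 (SE 0.33, edgeR adjusted p = 0.162) from a mean of 3.07 ± 1.497 CPM (SD, n = 9) to 7.60 ± 4.22 CPM (SD, n = 9), and the summed thalamus list stood beside it at 199.2 ± 49.1 and 372 ± 170.3 CPM (SD, n = 9 each).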

How the data were processed

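Gene-level counts were deposited as the authors' tables, from reads aligned with STAR to GRCm38 (Ensembl annotation) after reads of low quality were discarded. The paper names featureCounts for the counting, but the deposited counts have the layout of STAR gene counts. Their columns were taken as unstranded, forward-strand and reverse-strand counts from that layout and from the strand shares. These counts are raw. Reverse-strand counts were used, since forward-strand counts were 3.51 to 4.13% of the strand-specific total. Read pairs that were unmapped (13.9 to 19.9%), multimapping (8.70 to 12.1%), outside genes (19.9 to 28.8%) or ambiguous (0.836 to 1.12%) were left out. Of 45318 identifiers, 44671 matched GENCODE vM21, which gave symbols, coordinates and exon lengths.

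The 55 libraries were grouped by their labels into 54 mice, and the 2 runs of EE control replicate 9 (r = 0.995) were summed. CPM were scaled by TMM. Groups were compared with the quasi-likelihood test of edgeR 4.0.16 in R 4.3.3 after filterByExpr, with Benjamini-Hochberg adjustment over 18283 genes. Alternatives were DESeq2 1.42.0, limma 3.58.1 (voom, adjusted p, or unadjusted p below 0.05 with a fold change above 1.3), RLE size factors, no filter, unstranded counts, the replicate number as a block, the first run alone and each mouse left out. On simulated counts of 18158 genes, edgeR recovered 99.5% of 200 genes changed by a log2 value of 1 between defeated and control mice, with 8 others called. Recovery of smaller changes, in single pairs of groups or for genes of few counts alone, was not tested. All log2 changes of the members were smaller than 1 in size, so this share does not show that edgeR would have called them.

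Correlations used log2 CPM (prior count 2) minus group means and 100000 permutations within groups (smallest p 1e-05), adjusted over 21 pairs of members, 77 member and list pairs and 154 member and gene pairs. A list score was the mean of its genes, each divided by its SD. Python 3.11.15, NumPy 2.4.6, pandas 2.3.3, SciPy 1.17.1, statsmodels 0.14.6 and matplotlib 3.10.9 were used.

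The genes named are the 7 members, their partners, 5 other mossy cell genes, the 5 genes most like each member and the marker lists. Members and lists were chosen with earlier results of these data known. The result of 1 marker gene is not reported here.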

Additional observations from a re-analysis of the deposited data

Results flagged for a closer look

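In 3 of 42 combinations of gene and group, 1 mouse lay farther from the rest of its group than Dixon's 95% limit allows. Chance alone gives about 1 in 20. Ociad2 was 93.1 CPM in SH control replicate 3, and the next SH control mouse had 72.6 CPM. SH RES replicate 5 was such a mouse for both neuropeptides, with 3.01 CPM of Nmb (64 counts) above a next value of 2.49 CPM, and 1.65 CPM of Gal (35 counts) above a next value of 1.21 CPM.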

How the results depend on the processing

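All 14 counts of called members were 0 under DESeq2, limma-voom with adjusted p, RLE size factors, no filter, unstranded counts and the first run alone. The replicate block also gave 0 for each and changed no call of a member. The deviations of 126 same-numbered pairs of mice correlated with a median r of 0.0441 (-0.343 to 0.523). For pairs of different number the median was -0.00579, and 7 of 54 mice were closest to one of their own number. Whether mice of the same number shared any handling was not tested. limma-voom at an unadjusted p below 0.05 with a fold change above 1.3 gave 1 member for any difference among groups (Ociad2, where 3.32% of all genes passed), 1 for EE RES against SH RES (Ociad2, 3.24%), 1 for EE SUS against EE control (Gal, 1.94%) and 1 for EE control against SH control (Gal, 1.12%). Leaving out single mice gave 0 to 1 for EE RES against SH RES and 0 to 0 for the others.

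The 10 correlated pairs became 12 without removal of group means, 7 by Spearman's rho, 8 in control mice alone, 5 in defeated mice alone, 2 with CA3 and granule scores regressed out, and 7 to 11 when single mice were left out. The pairs of Calb2 with Glp1r, Gal and Ociad2, of Glp1r with Csf2rb2 and Ociad2, and of Csf2rb2 with Ociad2 passed whichever of the 54 mice was left out. Gal with Ociad2 was lost when any 1 of 23 mice was left out and Calcrl with Nmb when any 1 of 10 was. Glp1r with Gal was lost without SH control replicate 10 (r = 0.299) or EE control replicate 5 (r = 0.332), and Calb2 with Csf2rb2 without EE SUS replicate 1 (r = 0.287). Calb2 with Calcrl passed without SH control replicate 1 (r = 0.303).

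Over all genes, EE RES against SH RES had 50 calls with edgeR, 243 with DESeq2, 228 with the block and 24 without the filter, EE against SH 442, 680, 581 and 242, any difference among groups 64 with edgeR and 183 and 40 with DESeq2 and limma-voom, defeated against control 8 and 13 with DESeq2, and SH SUS against SH control 6 and 1 with limma-voom. EE control against SH control and EE SUS against SH SUS, each with 1 call by edgeR, had 0 to 2. Tdo2, not called for EE RES against SH RES, was called there by DESeq2 and without EE RES replicate 9 (edgeR adjusted p = 0.0446).

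Among 91 log2 changes of the members, 7 changed sign under at least 1 of the 8 settings and 23 when 1 mouse was left out, with largest sizes of 0.0602 and 0.084, and none of them is given above. At 22 to 51 counts per mouse, depth limits Gal, Csf2rb2 and Nmb most.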

Other observations

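Within single groups, the pairs of members could differ widely. Calb2 and Nmb, which were not correlated over all mice (r = -0.138), had r between -0.887 and 0.218 in the 6 groups, and Glp1r and Ociad2 between -0.785 and 0.698. With 7 to 10 mice a group, these values were not tested. SH control replicate 10, the mouse with the least Calb2 and Glp1r, had the most Nmb of all 54 mice (3.64 CPM). Csf2rb, the paralog of Csf2rb2, was 0.59 higher on the log2 scale in EE SUS than in EE RES mice (SE 0.17, edgeR adjusted p = 0.9997). Csf2rb also rose with Calcrl over mice (r = 0.429, rho = 0.343, adjusted permutation p = 0.01 by r and 0.0695 by rho), and its r was 0.361 without the 2 mice farthest from its median.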
